A study of Mus musculus with 6 samples.

Results

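Heat shock proteins and chaperones were examined in activated CD4 T cells of mice with and without the microRNA miR-155. The members and the lists set beside them were chosen with earlier results of these data known. Membership went by gene symbol alone: HSPA to HSPE and HSP90 genes, Hsph1, all DNAJ genes, Cct2 to Cct8 and Tcp1, pseudogenes left out. This gave 146 of the 22690 probe sets, for 70 of 12393 genes, and 63 of the 70 were among the 9295 genes tested after the dimmest 25% of all genes were left out. The 7 members left out, Cct6b, Dnajb3, Dnajb7, Hspa12b, Hspa1l, Hspb3 and Hspb7, had means of 3.34 to 4.69 on the log2 scale, under the 4.72 of the dimmest gene tested. Hspa1a passed this filter only through 1 array, as described below.

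The arrays came from 3 miR-155 knockout mice (KO) and 3 wild-type mice (WT), all C57BL/6, with 1 mouse per array according to the series description and no age given in the labels. CD4 T cells of spleen and lymph nodes were taken out with CD4 magnetic beads. Both genotypes were stimulated alike over 3 days of culture by CD3 and CD28 antibodies (1 µg/mL) in medium with 20 U/mL of interleukin 2, so every value describes activated cells. The knockout is the published line of Thai and colleagues, per the series description. In such bulk RNA, fewer cells of a type and less RNA per cell cannot be told apart.

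Chaperones bind unfolded proteins and help them to fold. HSP70 proteins do so in cycles of ATP hydrolysis that J-domain proteins (DNAJ) start and HSP110 proteins, as nucleotide exchange factors, complete, while HSP90 acts later, on kinases and hormone receptors among others. Chaperonins are barrel-shaped complexes that enclose their substrate: TRiC, built of the CCT subunits, folds actin and tubulin in the cytosol, and HSP60 with its lid HSP10 folds proteins in the mitochondrial matrix. Some of these genes are active in every growing cell, and others, with Hspa1a and Hspa1b as the textbook case, are switched on by the transcription factor HSF1 when proteins misfold. T cell activation is itself known to raise many chaperone transcripts, since the cells grow and divide quickly.

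The microRNA removed in the KO cells is shown here with its seed, bases 2 to 8, in capitals, as the sequence that defines the perturbation (RefSeq, GRCm38.p6, chr16:84714143-84714165, plus strand).
mmu-miR-155-5p: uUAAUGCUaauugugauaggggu

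HSF1 binds inverted repeats of the letters GAA. The promoters of 58 of the 70 members were found in RefSeq (GRCm38.p6), as windows from 250 bases before to 50 bases after a start site, and were searched for a pair of such units, GAANNTTC or TTCNNGAA. Each form reads the same on both strands, and the forms can overlap in a shared unit. A pair was present in 17 members (29.3%) and in 17.0% of all 27025 genes with a window. A run of 3 units, GAANNTTCNNGAA or TTCNNGAANNTTC, was present in 4 members (Dnajb6, Hspd1, Hspe1 and Hsph1) and in 0.662% of all genes. The ER stress element, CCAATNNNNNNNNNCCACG on either strand, was present in Hspa5, Hsp90b1 and Dnajc3 and in 0.137% of all genes. Such a match describes letters only and does not show that a factor binds there.

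The stretches that the results refer back to are given 5′ to 3′ up to the base before the start site, with the matched letters in capitals. Those of Hspa1a (chr17:34972157-34972306, minus strand) and Hspa1b (chr17:34959239-34959388, minus strand) are shown because these genes had the largest ranges over the arrays, and their windows of 300 bases differ at 4 positions.
Hspa1a: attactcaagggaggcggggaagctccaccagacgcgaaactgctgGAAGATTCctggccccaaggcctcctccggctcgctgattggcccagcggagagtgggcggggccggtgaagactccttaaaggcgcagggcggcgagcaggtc
Hspa1b: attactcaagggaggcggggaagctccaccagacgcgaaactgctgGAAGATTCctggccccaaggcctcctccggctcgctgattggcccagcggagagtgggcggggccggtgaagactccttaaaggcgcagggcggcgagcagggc

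Hspb1 (chr5:135887769-135887918, plus strand) and Dnajb4 (chr3:152193846-152193945, minus strand, 1 of its 2 windows) are shown as other members that stood high on the same array as Hspa1a. The stretch upstream of Hspe1 (chr1:55087998-55088147, plus strand) is shown because it also serves Hspd1, which is read the other way: their windows overlap by 285 bases and share the run of units. Hsph1 (chr5:149636337-149636436, minus strand) is shown as an HSP110 gene that holds a pair and did not stand high on that array. Hspa5 (chr2:34771940-34772089, plus strand) carries the ER stress element.
Hspb1: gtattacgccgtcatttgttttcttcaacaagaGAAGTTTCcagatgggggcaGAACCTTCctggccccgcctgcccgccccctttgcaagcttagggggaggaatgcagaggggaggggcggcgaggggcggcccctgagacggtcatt
Dnajb4: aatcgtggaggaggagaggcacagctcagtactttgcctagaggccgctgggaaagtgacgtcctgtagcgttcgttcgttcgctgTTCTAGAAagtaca
Hspe1: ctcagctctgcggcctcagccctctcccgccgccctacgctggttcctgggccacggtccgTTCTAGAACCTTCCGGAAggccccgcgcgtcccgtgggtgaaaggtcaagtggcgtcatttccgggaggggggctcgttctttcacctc
Hsph1: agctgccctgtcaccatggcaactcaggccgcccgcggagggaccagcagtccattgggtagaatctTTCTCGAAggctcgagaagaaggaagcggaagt
Hspa5: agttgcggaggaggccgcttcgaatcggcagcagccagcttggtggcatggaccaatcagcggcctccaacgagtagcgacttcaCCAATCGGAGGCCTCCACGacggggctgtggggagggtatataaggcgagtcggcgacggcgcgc

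On the arrays as a whole, Mir155hg, the host transcript of miR-155, lay between 3.51 and 4.45 log2 units in KO and between 6.59 and 8.21 in WT. Even its difference of -3.55 ± 0.44 (SE) did not pass the adjusted limma test (adjusted p = 0.545). The CD4 T cell marker list averaged 10.8 to 11.4 on all 6 arrays, with all 8 markers brighter than the dimmest gene tested, while all 3 NK cell and all 5 neutrophil markers on the array were dimmer than it. Of the 8 CD4 T cell markers 7 had a higher KO mean, against 4575 of all 9295 genes. WT replicate 1 was the lowest array in 6 of them, against 2118 of all 9295. KO replicate 1 stood apart from the rest on the first principal component, at -41.3 against -14.6 to 26.1. Both replicate 1 arrays carried Xist, the X-inactivation RNA, with Y-linked Eif2s3y near background (3.50 and 3.44), both replicate 2 arrays the reverse, and both replicate 3 arrays Xist (12.6 and 12.6) together with Eif2s3y (10.05 and 10.21). The replicate 3 arrays thus may not be of 1 mouse each. Main results are also given without KO replicate 1 and over replicates 1 and 2 alone. KO replicate 1 was the only KO array with Eif2s3y near background, so leaving it out unbalances the genotypes by sex. Eif2s3y then differed by 2.18 between KO and WT, against -0.068 with all 6 arrays. Replicates 1 and 2 alone keep both kinds of array in each genotype. The part of sex in the results without KO replicate 1 was not tested.

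Across the 63 tested members, KO and WT did not differ past the test. With limma, 0 members and 0% of all genes had an adjusted p under 0.05. At an unadjusted p under 0.05, limma gave 1 member higher in KO, Dnajb9, and 1 lower, Hspa14. That is 1.59% of the members in each direction, against 3.57% of all genes higher and 3.86% lower. The mean was lower in KO for 37 members (58.7%, against 50.8% of all genes), and the members' median difference was -0.089 log2 units, beside -0.0036 for all genes tested. All 3 KO arrays lay above all 3 WT arrays in 1 member (1.59%, against 5.86% of all genes) and below them in 5 members (7.94%, against 6.92%). These shares are near the background or under it. The differences ranged from -0.66 for Hspd1 to 1.66 for Hspa1a.

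The picture was similar without KO replicate 1. Limma then gave 0 members and 0% of all genes with an adjusted p under 0.05, and 3 members (4.76%) at an unadjusted p under 0.05, against 4.92% of all genes. These were Dnajb9 on the higher and Hspa1b and Tcp1 on the lower side. KO replicates 2 and 3 both lay above all WT arrays in 3 members (4.76%, against 10.5% of all genes) and below them in 7 (11.1%, against 11.4%). The mean was lower in KO for 38 members (60.3%, against 52.4%), with a median of -0.084 beside -0.012 for all genes. Over replicates 1 and 2 alone, 40 of 63 members were lower, with a median of -0.11.

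**Figure D1:**
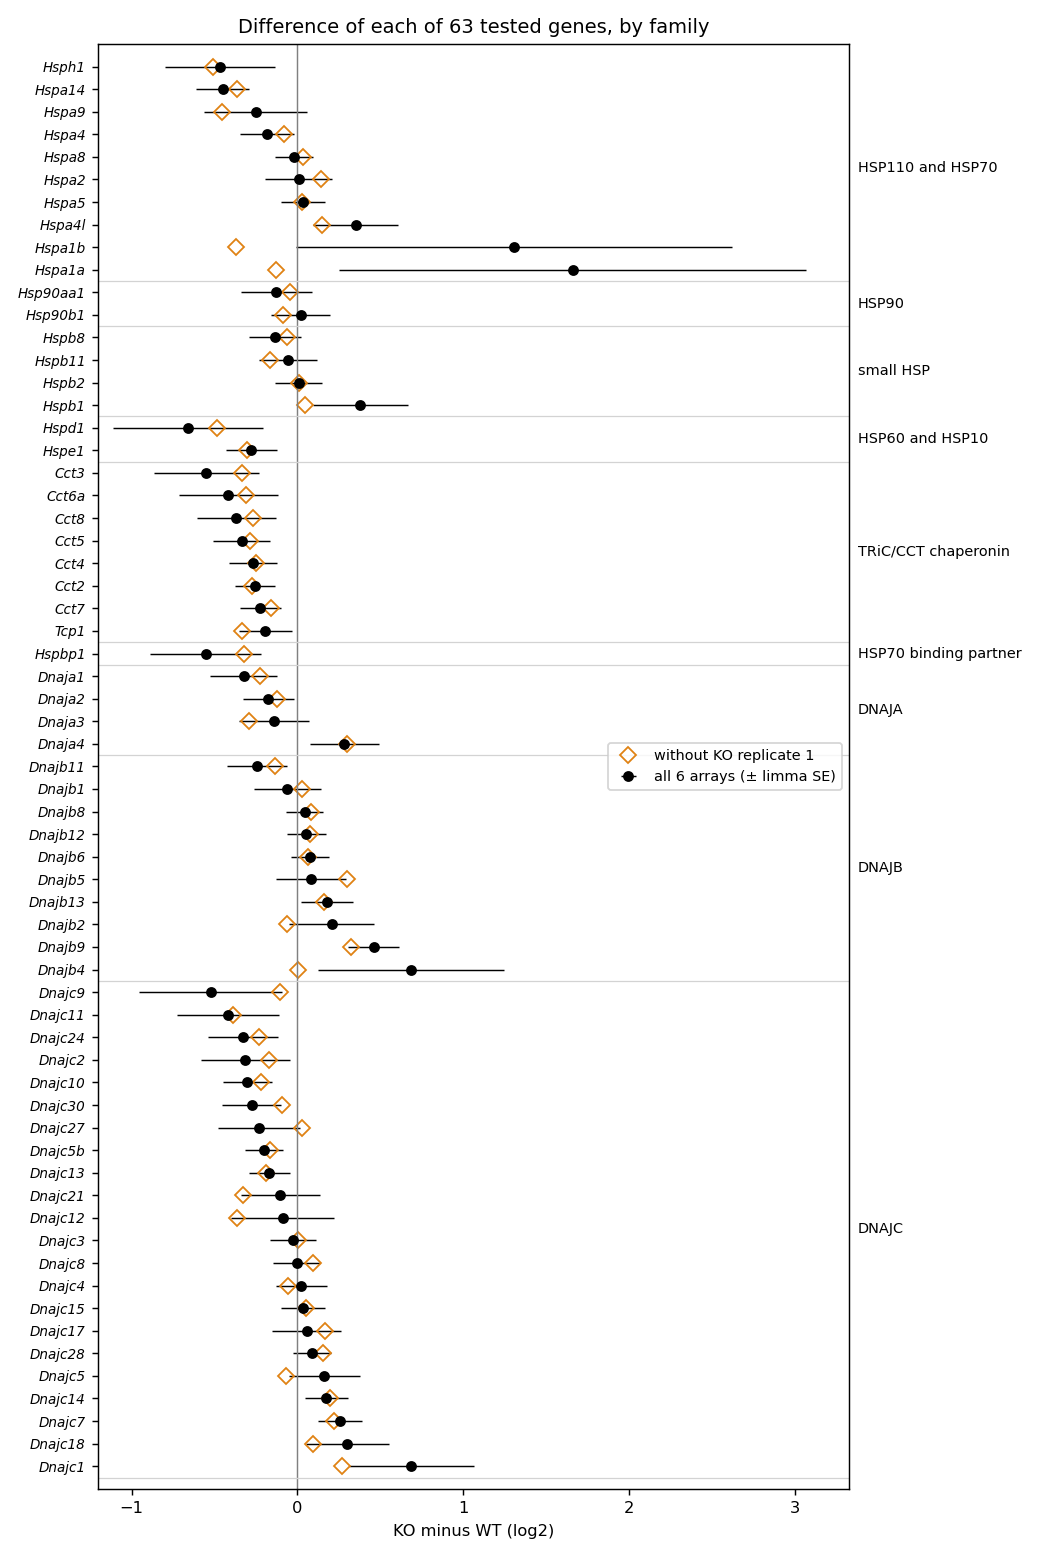
KO minus WT difference in log2 units (horizontal axis) for each of the 63 tested genes, grouped by family, from all 6 arrays (black points, bars are the limma SE) and without KO replicate 1 (open diamonds). All 8 TRiC subunits lie left of 0 with and without that array, whereas Hspa1a and Hspa1b lie right of 0 with it and left of 0 without it.

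KO replicate 1 held the widest departures among the members. It was at least 1 log2 unit above the mean of the other 5 in 5 members, Hspa1a, Hspa1b, Dnajb4, Dnajc1 and Hspb1 (7.94%, against 4.41% of all genes), and as far below it in 1, Dnajc9 (1.59%, against 3.29%). The 5 include Hspa1a, which passed the filter only through this array. The same array held the highest value of 13 members (20.6%, against 25.8% of all genes) and the lowest value of 24 (38.1%, against 30.2%). WT replicate 1 held the highest value of 29 members (46.0%, against 23.4% of all genes), 8 of them TRiC subunits. A small set of members was thus high on KO replicate 1, and a larger set peaked on WT replicate 1.

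**Figure D2:**
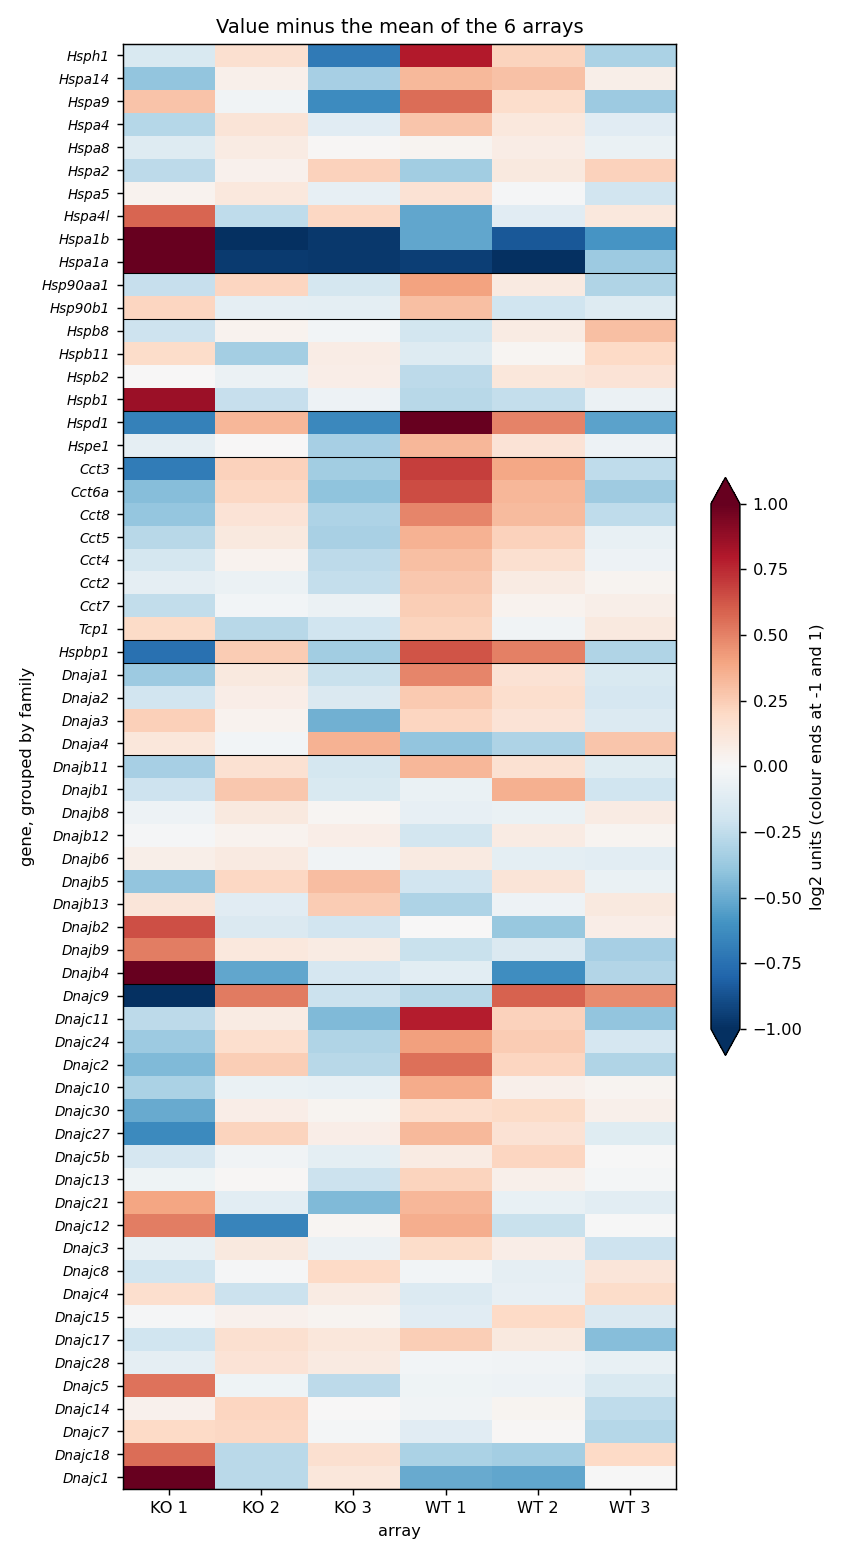
Each tested gene's value minus its mean over the 6 arrays (colour, log2 units, ending at -1 and 1) for the 3 KO and 3 WT arrays, with lines between families. Hspa1a, Hspa1b, Dnajb4, Dnajc1 and Hspb1 are dark red on KO 1, and the chaperonin block is red on WT 1 and WT 2 and blue on KO 1 and KO 3 for most genes.

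Hspa1a and Hspa1b, which encode the inducible HSP70 of the cytosol, were high on KO replicate 1 and dim elsewhere. Hspa1a measured 9.72, 4.35 and 4.35 in KO, in the order of replicates 1, 2 and 3 used throughout, and 4.37, 4.12 and 4.94 in WT. Hspa1b measured 10.34, 5.23 and 5.36 in KO and 5.80, 5.47 and 5.73 in WT. KO replicate 1 was above the mean of the other 5 arrays by 5.29 log2 units for Hspa1a and by 4.82 for Hspa1b (28.2-fold).

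Since the other arrays averaged 4.43 for Hspa1a, under the 4.72 of the dimmest gene tested, no fold is given for it. The other probe sets of Hspa1b showed the same array alone, at 9.17 against 3.82 to 4.50 and at 10.22 against 4.83 to 5.47. Because the coding parts of these neighbouring genes are nearly identical, probes may not tell them apart, and the pair is best read as 1 signal. Hspa1l, another HSP70 gene of that locus known from testis, was at 3.27 to 3.58 on all 6 arrays.

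As a genotype comparison, Hspa1a differed by 1.66 ± 1.41 (SE) and Hspa1b by 1.31 ± 1.32 (SE), with limma adjusted p of 0.690 and 0.734. The SD over the KO arrays was 3.10 and 2.91, against 0.42 and 0.17 over the WT arrays (n = 3 each). Without KO replicate 1 the sign turned in both, to -0.13 for Hspa1a and -0.37 for Hspa1b. Over the remaining arrays Hspa1b had both KO values below all 3 WT values (limma unadjusted p = 0.045, not past the adjusted test). With any 1 of the other arrays left out, the Hspa1a difference was between 1.48 and 2.56.

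Also on KO replicate 1, the 10 tested hypoxia response genes averaged 1.12 log2 units above their 6-array means, against -0.35 to -0.07 on the other arrays, and the 21 tested cell cycle genes averaged -0.88, against -0.08 to 0.36. Ddit3, which encodes the stress factor CHOP, was at 11.04 there against 8.71 to 9.33 (a gene chosen after its values were seen). Their part in the HSP70 values was not tested. CD4 T cell markers averaged 11.3 on that array, within the range of the other KO arrays (11.2 to 11.4), and the B cell, CD8 T cell, macrophage and dendritic cell lists averaged within the range of the other 5 arrays. Over the 4 tested macrophage markers alone, however, the mean deviation was highest there, at 0.15 against -0.21 to 0.065, and its part was not tested.

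**Figure D3:**
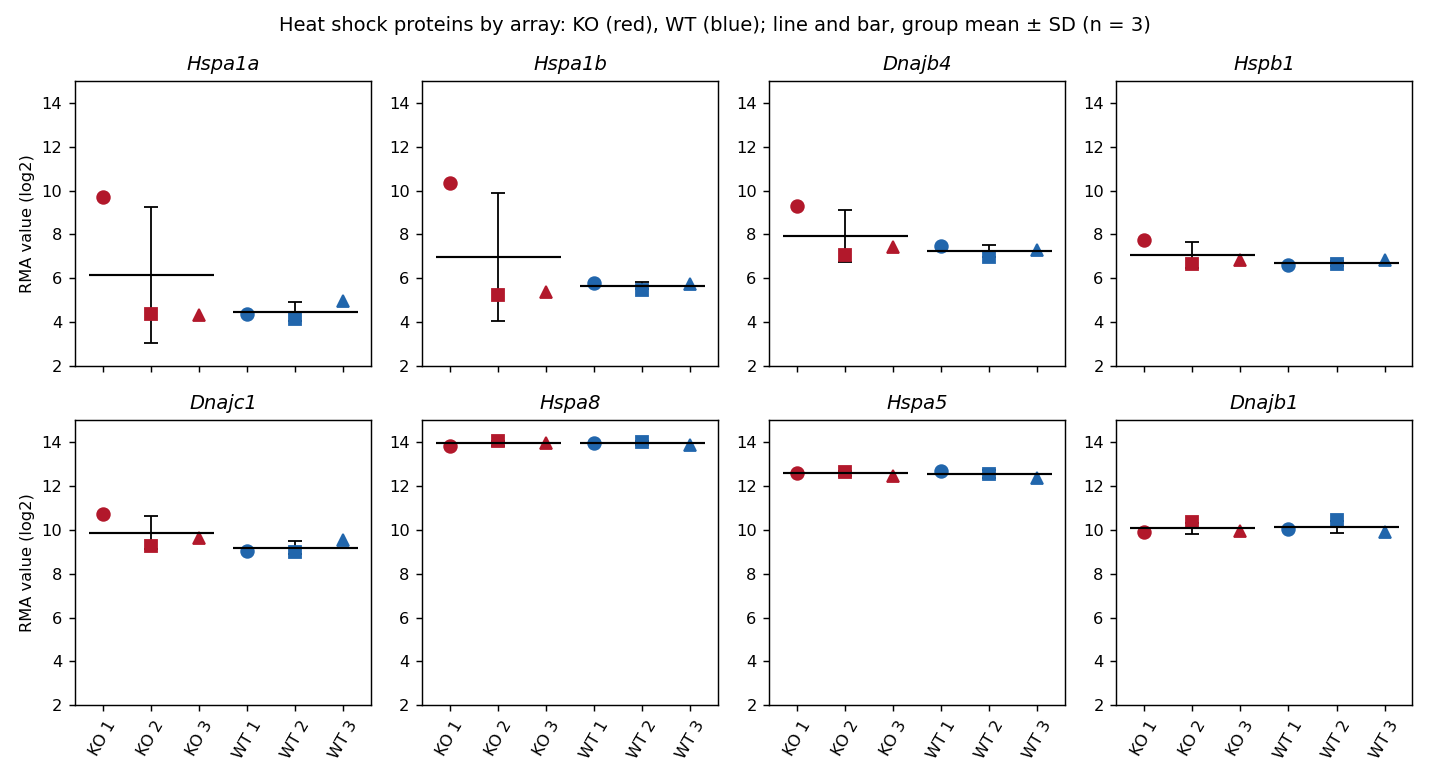
RMA values in log2 units (vertical axis) on each KO (red) and WT (blue) array for 8 members, with the group mean as a line and its SD as a bar (n = 3). KO 1 stands far above the other 5 arrays for Hspa1a and Hspa1b, by less for Dnajb4, Dnajc1 and Hspb1, and lies close to them for Hspa8, Hspa5 and Dnajb1. Each gene is shown by its brightest probe set, and a weaker set of Hspa8 and another of Dnajb1 were highest on KO 1.

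The other HSP70 genes did not share that array's excess. Hspa8, the constitutive HSP70 of the cytosol, measured 13.83, 14.04 and 13.96 in KO and 13.98, 14.03 and 13.89 in WT. Its difference was -0.022 ± 0.11 (SE), well within the spread. A much dimmer Hspa8 probe set, however, read 9.05 on KO replicate 1 against 6.11 to 7.31 on the others. Hspa5, the HSP70 of the endoplasmic reticulum also called BiP, lay between 12.37 and 12.71 on all 6 arrays, with a difference of 0.035 ± 0.13 (SE).

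Hspa9, the mitochondrial HSP70 or mortalin, measured 11.03, 10.70 and 10.11 in KO and 11.30, 10.92 and 10.38 in WT. The groups overlapped, and the difference of -0.25 ± 0.31 (SE) did not exceed the spread between arrays. KO was nevertheless below WT at each replicate number. Hspa14, a ribosome-associated HSP70, measured 10.11, 10.56 and 10.17 in KO and 10.83, 10.80 and 10.57 in WT. Its groups did not overlap, though KO replicate 2 and WT replicate 3 were almost level. The difference was -0.45 ± 0.16 (SE), or 1.37-fold lower in KO (limma unadjusted p = 0.028, adjusted p = 0.631, exact permutation p = 0.1, the smallest possible for 3 against 3). It was -0.37 without KO replicate 1 and -0.48 over replicates 1 and 2 alone, and its other probe set gave -0.44. The unadjusted limma p was 0.075 without KO replicate 1, 0.089 without KO replicate 3, 0.082 and 0.085 without WT replicates 1 and 2, and 0.081 over replicates 1 and 2 alone.

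Among the HSP110 genes, Hsph1, whose product resets HSP70, measured 9.34, 9.65 and 8.78 in KO and 10.29, 9.72 and 9.17 in WT. WT replicate 1 was its highest and KO replicate 3 its lowest array, and the groups overlapped (-0.47 ± 0.33 SE, limma adjusted p = 0.655). Without WT replicate 1 the difference was -0.19. Its value on KO replicate 1 lay inside the range of the others. The Hsph1 promoter holds a pair of HSF1 units and, after the start site, a run of 3. Hspa4l differed by 0.35 ± 0.26 (SE), and by 0.15 without KO replicate 1, its highest array at 9.89. Hspa4 differed by -0.18, and its weaker probe sets, both lowest on KO replicate 1, by -0.61 and -0.49. In all, 5 of the 10 tested HSP70 and HSP110 genes had a higher and 5 a lower KO mean, with a median of -0.0067 (-0.11 without KO replicate 1, 4 higher and 6 lower).

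Neither tested HSP90 gene differed between genotypes beyond its spread. Hsp90aa1, the stress-inducible cytosolic HSP90, measured 12.59, 13.04 and 12.65 in KO and 13.22, 12.91 and 12.52 in WT, a difference of -0.13 ± 0.22 (SE). Its weaker probe sets differed by -0.34 and -0.30, and the mean of all its probe sets by -0.25. Hsp90b1, the HSP90 of the endoplasmic reticulum, measured 12.26, 11.95 and 11.94 in KO and 12.34, 11.84 and 11.91 in WT, a difference of 0.020 ± 0.18 (SE). A weaker probe set of Hsp90b1 differed by -0.27. In both genes the highest array was WT replicate 1. Hsp90ab1 had no probe set with a single symbol in the annotation used and is not analysed here.

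Small heat shock proteins, ATP-independent holders of unfolded proteins, gave 4 tested genes of 6 on the array. Hspb1, or HSP25, measured 7.73, 6.64 and 6.82 in KO and 6.60, 6.64 and 6.81 in WT. Only KO replicate 1 stood out, at 2.04-fold over the mean of the other 5 arrays, and its second probe set was highest there too (6.15 against 4.95 to 5.22). The difference of 0.38 ± 0.29 (SE) became 0.047 without that array. Hspb8 and Hspb11 differed by -0.13 and -0.059, within their spread, and Hspb2 by 0.0089. Hspb11 carries a heat shock name but is known as a part of the intraflagellar transport machinery of cilia.

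DNAJ proteins bring substrates to HSP70 and trigger its ATPase. In class A, which holds the closest relatives of the bacterial DnaJ, 3 of 4 genes were lower in KO, with a median of -0.16. Dnaja1, a partner of Hspa8 in the cytosol, measured 10.95, 11.41 and 11.09 in KO and 11.81, 11.46 and 11.16 in WT, and overlapped between genotypes (-0.32 ± 0.20 SE). Dnaja2 differed by -0.18 and the mitochondrial Dnaja3 by -0.14. Dnaja4 differed by 0.28 ± 0.21 (SE), with WT replicates 1 and 2 low, at 6.504 and 6.592, and the rest at 6.87 to 7.24. Its weaker probe sets differed by -0.042 and -0.098.

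Class B gave the member with the smallest p of all 63. Dnajb9, or ERdj4, a J-protein of the endoplasmic reticulum that is a target of the unfolded protein response, measured 8.05, 7.64 and 7.62 in KO and 7.32, 7.40 and 7.21 in WT. Every KO array lay above every WT array. The difference was 0.46 ± 0.15 (SE), or 1.38-fold (limma unadjusted p = 0.021, adjusted p = 0.631, exact permutation p = 0.1). It was 0.32 without KO replicate 1 (limma unadjusted p = 0.037) and 0.49 over replicates 1 and 2 alone, and the gene had 1 probe set. The unadjusted limma p was 0.064 without WT replicate 3 and 0.071 over replicates 1 and 2 alone.

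Dnajb4, a cytosolic J-protein known to be induced by heat, followed Hspa1a. It measured 9.29, 7.06 and 7.42 in KO and 7.47, 6.96 and 7.29 in WT, so KO replicate 1 was 4.14-fold over the mean of the other 5 arrays and the rest overlapped. The difference of 0.68 ± 0.56 (SE) was 0.0010 without that array. A second probe set read 8.05 there and 5.18 to 5.70 elsewhere. Dnajb1, or HSP40, the J-protein usually induced along with Hspa1a, differed between its probe sets: the brighter measured 9.89 on KO replicate 1, its lowest array, and 9.90 to 10.45 on the others, whereas the second measured 10.65 there against 9.71 to 10.07. The brighter set differed by -0.060 and the second by 0.29 between genotypes. Of the 10 tested class B genes 8 were higher in KO, with a median of 0.079 (0.070 without KO replicate 1, again 8 higher, and 0.090 over replicates 1 and 2 alone, 7 higher).

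Class C, J-proteins of diverse build, gave 22 tested genes, 9 higher and 13 lower in KO, with a median of -0.058. Dnajc1, a membrane protein of the endoplasmic reticulum, measured 10.71, 9.26 and 9.64 in KO and 9.02, 9.004 and 9.52 in WT. KO replicate 1 was its highest array, at 2.69-fold over the others, and the difference of 0.69 ± 0.38 (SE) was 0.27 without it. Dnajc10, or ERdj5, a disulphide reductase of the endoplasmic reticulum, measured 8.32, 8.57 and 8.56 in KO and 9.01, 8.68 and 8.66 in WT. Its groups did not overlap (-0.30 ± 0.15 SE, limma adjusted p = 0.631), and both weaker probe sets agreed in sign, at -0.33 and -0.34.

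Dnajc7, which links HSP70 and HSP90, differed by 0.26 ± 0.13 (SE), and Dnajc3, the kinase inhibitor P58IPK, by -0.026 ± 0.14 (SE). The 4 weaker probe sets of Dnajc3 differed by -0.15 to -0.28. Dnajc9, a histone chaperone partner that is expressed in dividing cells, was lowest on KO replicate 1, at 9.33 against 10.14 to 11.01. Its difference of -0.52 became -0.11 without that array. Dnajc5, the cysteine string protein, had 5 probe sets, all highest on KO replicate 1. The brightest read 10.72 against 9.92 to 10.14, and the dimmest on average read 8.54 against 6.60 to 7.22 (Dnajc9 and Dnajc5 were picked after their values were seen).

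Chaperonin transcripts were lower in KO in every tested gene, with none past the test. All 8 tested TRiC subunits were lower, with a median of -0.30 log2 units and a range from -0.19 for Tcp1 to -0.55 for Cct3, beside a median of -0.0036 for all genes. The same 8 were lower without KO replicate 1 (median -0.28) and over replicates 1 and 2 alone (median -0.34). Without WT replicate 1, on which all 8 peaked, the median was -0.19, and with the mean of all probe sets it was also -0.19. The subunits work in 1 complex in fixed proportion, so they are not independent of each other.

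In 2 of the 8, Cct2 and Cct7, all KO arrays lay below all WT arrays, as in 6.92% of all genes. Cct2 measured 12.58, 12.62 and 12.44 in KO and 12.94, 12.76 and 12.70 in WT (-0.26 ± 0.12 SE, limma unadjusted p = 0.077, adjusted p = 0.631). Its other probe sets gave -0.19 and -0.075. Cct5 measured 12.18, 12.55 and 12.13 in KO and 12.80, 12.68 and 12.38 in WT (-0.34 ± 0.17 SE), and Cct4 12.14, 12.34 and 12.05 against 12.61, 12.47 and 12.26 (-0.27 ± 0.14 SE). In both, KO replicate 2 reached into the WT range, and the limma adjusted p was 0.631.

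Cct3 measured 10.89, 11.82 and 11.24 in KO and 12.29, 11.98 and 11.34 in WT. Its 6 probe sets differed by -0.31 to -0.62. Tcp1, the subunit that gave the complex its name, measured 12.92, 12.46 and 12.53 in KO and 12.96, 12.70 and 12.83 in WT. It was the subunit in which KO replicate 1 was near its highest, and without that array its difference was -0.34 (limma unadjusted p = 0.044) instead of -0.19.

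Hspd1 and Hspe1, which encode HSP60 and HSP10 and share a promoter region, both peaked on WT replicate 1. Hspd1 measured 10.92, 11.93 and 10.96 in KO and 12.64, 12.10 and 11.07 in WT. KO replicates 1 and 3 and WT replicate 3 were low, and KO replicate 2 and WT replicates 1 and 2 high, so that the groups overlapped. The difference was -0.66 ± 0.45 (SE, limma adjusted p = 0.650), -0.49 without KO replicate 1, -0.31 without WT replicate 1 and -1.09 without WT replicate 3. Hspe1 measured 12.38, 12.47 and 12.14 in KO and 12.80, 12.60 and 12.41 in WT (-0.28 ± 0.15 SE, limma adjusted p = 0.631).

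Across the 6 arrays Hspd1 correlated with Hspe1 at r = 0.89 and with Cct3 at r = 0.97, and the 28 pairs of TRiC subunits had a median r of 0.81 (-0.012 to 0.99). These values describe the same 6 arrays and carry no p. Hspa1a correlated with Dnajb4 at r = 0.98 over 6 arrays and at 0.35 over the 5 without KO replicate 1, so that relation rests on that array. Hspd1 and Hspe1 hold a run of 3 HSF1 units, and neither was high on KO replicate 1.

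Cell cycle genes, B cell markers and CD4 T cell markers are given beside the chaperonins, since they too varied over the arrays. The TRiC genes' mean deviation from their 6-array means was -0.26, 0.042 and -0.27 in KO and 0.40, 0.19 and -0.10 in WT. The 21 cell cycle genes stood at -0.88, 0.073 and -0.079 in KO and 0.36, 0.30 and 0.24 in WT. The 5 tested B cell markers stood at 0.060, 0.11 and -0.35 in KO and 0.37, 0.20 and -0.40 in WT. The whole B cell list of 6 averaged 5.66 to 6.04 in KO and 5.64 to 6.23 in WT, with 1 marker under the dimmest gene tested. The 8 CD4 T cell markers stood at 0.13, 0.014 and 0.26 in KO and -0.42, -0.075 and 0.095 in WT. The part of cell division or of other cells in the chaperonin values was not tested.

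**Figure D4:**
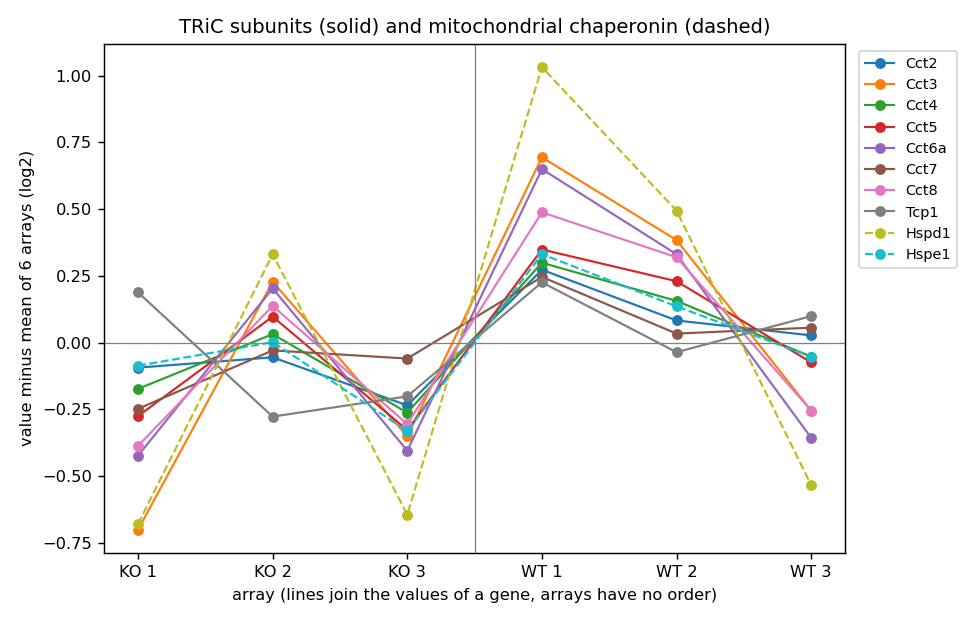
Value minus the mean of the 6 arrays in log2 units (vertical axis) for the 8 TRiC subunits (solid lines) and for Hspd1 and Hspe1 (dashed lines) on each array. All 10 genes peak on WT 1, most dip on KO 1 and KO 3, and Tcp1 alone is above its mean on KO 1.

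Hspbp1, which releases ADP from HSP70 and matched the symbol rule by its name, ran like the chaperonins. It measured 7.79, 8.79 and 8.19 in KO and 9.16, 9.04 and 8.23 in WT. The difference of -0.55 ± 0.34 (SE) was -0.32 without KO replicate 1, and the groups overlapped.

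By compartment, the 7 tested members of the endoplasmic reticulum split, 4 higher and 3 lower in KO, with a median of 0.020. The 8 tested mitochondrial members were lower in 6, with a median of -0.26 (-0.30 without KO replicate 1). The promoters that hold the ER stress element belong to genes with small differences in their brightest probe sets: 0.035 for Hspa5, 0.020 for Hsp90b1 and -0.026 for Dnajc3. Their weaker sets gave 0.11 for Hspa5, -0.27 for Hsp90b1 and -0.15 to -0.28 for Dnajc3. Dnajb9 and Dnajc1, which differed more by their brightest sets, held neither that element nor a pair of HSF1 units in the windows searched.

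Of the 5 members that stood at least 1 log2 unit higher on KO replicate 1, 4 held a pair of HSF1 units (Hspa1a, Hspa1b, Hspb1 and Dnajb4). Hspa1a and Hspa1b, with nearly identical promoters and probes that may not tell them apart, are counted separately here. Hspa1a passed the filter only through that same array. Among the other 46 tested members with a promoter window, 12 held one, and these 12 had a median of -0.29 log2 units on that array relative to the other 5. The members were sorted by 1 array's values, so these counts are a description, and the part of HSF1 was not tested.

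The partners of these chaperones that fall outside the symbol rule gave 0 genes past the adjusted limma test. Of 25 cochaperones and HSF genes 18 were lower in KO, with a median of -0.084 (-0.10 without KO replicate 1), 1 of them at an unadjusted limma p under 0.05. That was Stip1, or HOP, which joins HSP70 to HSP90. It measured 9.35, 9.79 and 9.56 in KO and 10.30, 10.11 and 9.77 in WT (-0.49 ± 0.19 SE), KO replicate 2 and WT replicate 3 overlapping. Fkbp4, an HSP90 cochaperone, differed by -0.76 ± 0.36 (SE) and Stub1, the ubiquitin ligase CHIP, by -0.38 ± 0.19 (SE). Bag3, a cochaperone induced by HSF1, was at 7.70 on KO replicate 1, inside the range of the others (6.91 to 8.03), and was chosen after its values were seen.

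Of 20 genes of ER folding and the unfolded protein response 13 were higher in KO, with a median of 0.10, and 4 of these reached an unadjusted limma p under 0.05, a level that 3.57% of all genes reached on the higher side. Without KO replicate 1 it was 2 of them, Atf6 and Syvn1, against 212 of all 9295 genes on the higher side. Xbp1, a transcription factor of that response, measured 12.90, 12.71 and 12.78 in KO and 12.51, 12.27 and 12.55 in WT (0.36 ± 0.13 SE). Atf6, the sensor and transcription factor, differed by 0.29 ± 0.10 (SE), and Syvn1, the ubiquitin ligase of ER-associated degradation, by 0.29 ± 0.11 (SE). Ppp1r15a, or GADD34, named after its values were seen, differed by 0.65 ± 0.25 (SE), and by 0.39 without KO replicate 1. In Xbp1, Atf6, Syvn1 and Ppp1r15a the KO arrays lay above the WT arrays, as in 5.86% of all genes, and each limma adjusted p was 0.631. The median of the list turned to -0.077 without KO replicate 1, with 8 of 20 higher, and was 0.16 over replicates 1 and 2 alone.

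Of 16 genes of mitochondrial folding and import 12 were lower, with a median of -0.16 (-0.24 without KO replicate 1, 15 lower). Of all genes, 50.8% were lower, and 52.4% without KO replicate 1. Clpp, a matrix protease subunit, differed by -0.59 ± 0.28 (SE), Timm23, a channel of the inner membrane, by -0.51 ± 0.27 (SE), and Grpel2, an exchange factor of mitochondrial HSP70, by -0.36 ± 0.18 (SE). None of the 16 had an unadjusted limma p under 0.05 with all 6 arrays. Without KO replicate 1 it was 1, Clpx, on the lower side, against 4.92% of all genes in either direction. KO replicates 2 and 3 both lay below all WT arrays in 4 of the 16 and above them in 0, against 11.4% and 10.5% of all genes.

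**Figure D5:**
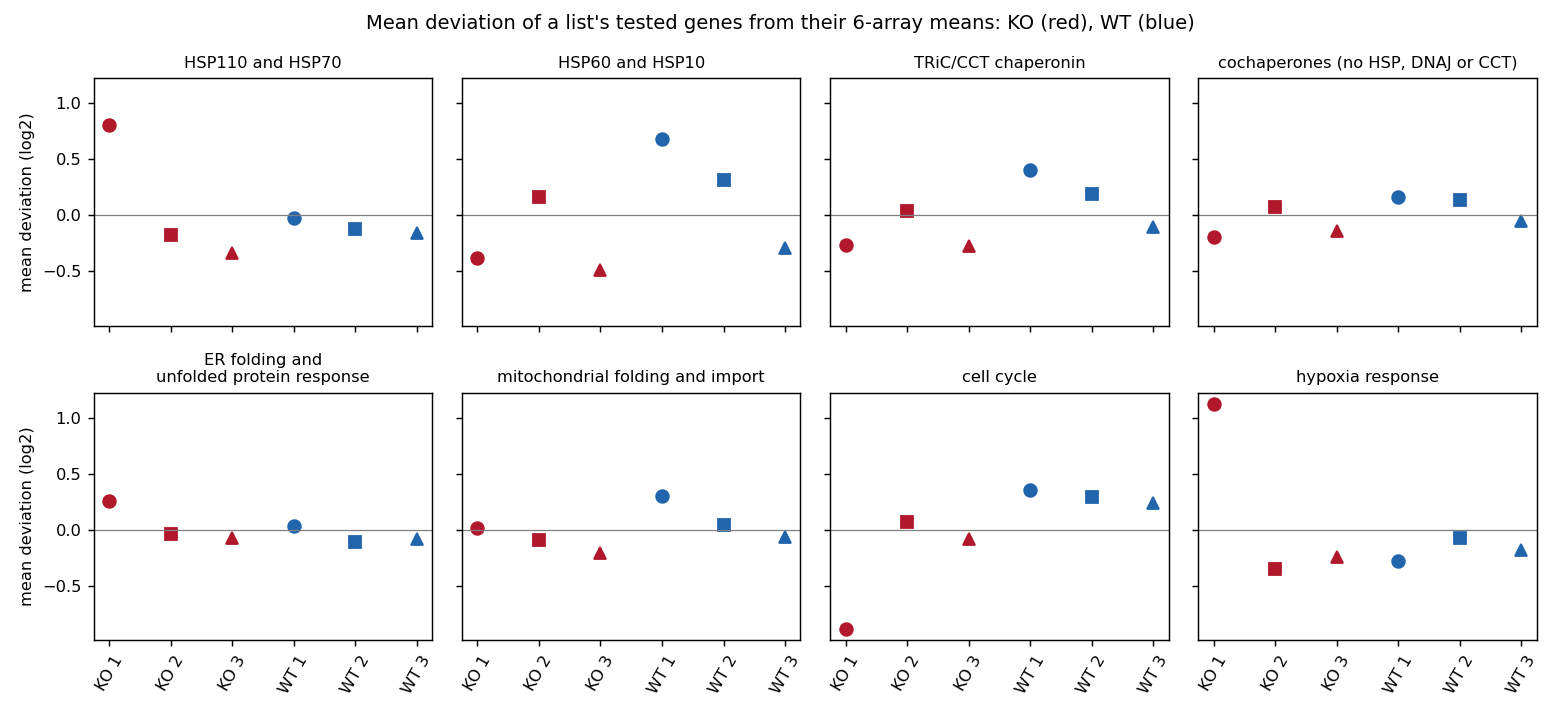
Mean deviation of each list's tested genes from their 6-array means in log2 units (vertical axis) on each KO (red) and WT (blue) array. KO 1 stands apart at 0.81 for HSP110 and HSP70, a mean set by Hspa1a and Hspa1b (the median of the 10 genes there is -0.047), at -0.88 for the cell cycle and at 1.12 for the hypoxia response, while the TRiC and HSP60 lists are highest on WT 1.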

How the data were processed

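Per the submitters' processing notes, the authors deposited log2 values from RMA in affy, with no version stated there. RMA evens out the arrays' distributions and compresses differences near background, and the small number of arrays limits precision. GEO's platform annotation gave 20393 probe sets 1 symbol, 691 several and 1606 none. Of those with several symbols, 2 had a symbol that matches and were left out. Each gene was represented by its brightest probe set on average, and 3098 dim genes were dropped.

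KO minus WT was tested with limma 3.58.1 in R 4.3.3 (lmFit, eBayes, two-sided, Benjamini-Hochberg over 9295 genes, adjusted p under 0.05), and single members also with two-sided exact permutation tests. P-values measure only the spread between these arrays. The members and lists were chosen with earlier results of these data known. Named genes were up to 3 with the smallest p per family and per list, 16 best-known genes (Hsp90ab1, also listed, is not analysed here) and the 4 members with the widest range; other genes are marked or serve to account for members. Alternatives were each array left out, the replicate number as a block, other normalizations, filters, probe set rules and variance settings (array weights with statmod 1.5.0) and, chosen after seeing the data, replicates 1 and 2 alone. On simulated data for KO minus WT over 9295 genes, the test recovered 59.0%, 92.5% and 93.0% of 200 genes changed by 1, 2 and 3 log2 units. The simulated noise was normal and independent between genes, unlike the real arrays, on which KO replicate 1 stood apart for many genes together. The rates therefore do not show that changes of these sizes are absent among the members.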

Additional observations from a re-analysis of the deposited data

How the results depend on the processing

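With limma, 0 members had an adjusted p under 0.05 under every alternative run except array weights. That setting gave 28 of 63 members and 3575 of 9295 genes (32 and 4711 at an unadjusted p under 0.05) and a DNAJA median of -0.32. Those weights rested mainly on KO replicate 3 (5.55) and WT replicate 2 (5.04). Testing every probe set gave 8 member probe sets and 1482 in all at an unadjusted p under 0.05, medians of -0.27 for HSP90 and 0.17 for DNAJB, and 33 member probe sets highest and 53 lowest on KO replicate 1. Without moderation 1 member, and over replicates 1 and 2 alone 0 members and 445 genes, had an unadjusted p under 0.05. With the mean of all probe sets, Hsp90b1 was -0.13, Hspa8 0.16 and Dnajb1 0.11. Array weights gave 0.025 for Hspb11 and -0.058 for Hspa5, and replicates 1 and 2 alone -0.00072 for Hspa5. The cause was not tested.

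With 1 array left out at a time, the unadjusted count ran from 276 (without WT replicate 1) to 1542 genes (without KO replicate 2) and from 1 to 9 members (9 without WT replicate 3, 8 without KO replicate 2). Medians ran from -0.27 to -0.043 for DNAJA, from -0.14 to -0.016 for DNAJC and from -0.077 to 0.20 for ER folding. They ran from -0.41 to -0.19 for TRiC, -0.73 to -0.25 for HSP60 and HSP10, -0.17 to 0.11 for HSP90, -0.13 to 0.068 for small HSP, -0.11 to 0.025 for HSP110 and HSP70, 0.041 to 0.11 for DNAJB, -0.16 to -0.083 for cochaperones, -0.24 to -0.094 for mitochondrial folding and -0.15 to -0.069 for all members. Differences ran from -0.74 to -0.19 for Hsph1, -0.31 to 0.042 for Hsp90aa1, -0.084 to 0.18 for Hsp90b1, -0.16 to 0.10 for Hspb11, -0.13 to 2.56 for Hspa1a and -0.37 to 2.18 for Hspa1b. They ran from -0.070 to 0.036 for Hspa8, -0.052 to 0.12 for Hspa5, -0.49 to 0.00026 for Hspa9, -0.21 to 0.10 for Dnajb1 and -0.14 to 0.058 for Dnajc3.

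Same-numbered KO and WT arrays correlated in their deviations at -0.042, 0.638 and 0.404, so the numbers were not taken to pair the samples, although the levels of Xist and Eif2s3y matched by number. KO replicate 1 correlated best with WT replicate 3, whereas KO replicates 2 and 3 correlated best with the WT array of their own number. Where groups are said to overlap, the replicate numbers were not used. Taken by number, KO was below WT each time in Hspa9, Hspd1 and all 8 tested TRiC subunits. The share of all genes for which this held was not counted. With the replicate block, 3 members and 918 genes had an unadjusted limma p under 0.05, against 2 and 691 without it, and 0 had an adjusted p under 0.05. Probe sets near background, Hspa1a on 5 arrays among them, give compressed differences.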
